A study of Mus musculus with 24 samples.

Results

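The genes described here are 10 named members of the heat shock protein network: the small heat shock proteins Hspb1, Cryab, Hspb6 and Hspb8, the co-chaperones Bag3 and Dnajb1, and the Hsp70 and Hsp110 chaperones Hspa8, Hspa1a, Hspa1b and Hsph1. They were chosen by gene symbol, and all 10 were found, with 1 row each, among the 15524 genes measured in spinal cord RNA (lumbar region) from 24 mice, sequenced in bulk by MARS-seq, which reads the 3' ends of polyadenylated RNA and tags each molecule. Non-transgenic (NT) mice, 10 in all, were compared with 10 untreated SOD1-G37R mice, transgenic for a mutant human SOD1 and affected by motor neuron disease late in life. The paper describes an experiment with 3 females and 3 males per genotype, called experiment 1 here, and another with 4 males per genotype, called experiment 2. The labels name no experiment, so untreated males were assigned to one or the other from these numbers and the style of their label codes, and every value by experiment rests on that assignment. A further 4 SOD1-G37R males had received AAV-PHP.eB-MIF, a vector for macrophage migration inhibitory factor tagged with HA, by 1 injection into the tail vein once disease had begun. The controls were littermates, on a C57BL6 cross, and the paper describes the untreated mice as symptomatic and a little over a year old. It does not describe the mice given the vector. Their age is not given in the sources used here, and they were set beside the males of experiment 2 likewise because their label codes follow those males. No mouse analysed here received an empty vector, so the injection, the vector and MIF cannot be told apart.

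Chaperones keep proteins folded and hand those that cannot be refolded to degradation. Small heat shock proteins bind unfolding proteins without using ATP and hold them for the Hsp70 machine, in which J-domain proteins such as Dnajb1 deliver clients to Hsp70, and nucleotide exchange factors such as Hsph1 and the BAG proteins release them. Bag3 also joins Hspb8, Hspa8 and the ubiquitin ligase Stub1 in chaperone-assisted selective autophagy, a route that clears mutant SOD1 in cultured cells. Aggregates of misfolded SOD1 are a mark of the disease these mice model, and MIF itself has been described as a chaperone for misfolded SOD1.

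Many of these genes are induced by heat shock factors, which bind heat shock elements, inverted repeats of GAA and TTC. RefSeq promoters (GRCm38.p6, 250 bases before to 50 bases after each annotated start) were matched by symbol for 8 of the 10 genes, and searched on both strands for the half-site pairs GAANNTTC and TTCNNGAA, each of which is its own reverse complement. Of the 11 promoters of these genes 8 held a pair, where 15.1% of all 32851 promoters in the table did. The promoters of Hsph1 overlap and hold the same pairs, so they are not separate cases. The genes were picked by name as heat shock genes, so this share is background and not a result of these data. The following stretches of 30 bases, 5' to 3' on the gene's strand with the pairs in capitals, are shown because they are the candidate heat shock elements of the genes whose levels are given below.
Hspb1, chr5:135887801-135887830, plus strand: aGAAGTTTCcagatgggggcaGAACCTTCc
Hspb6, chr7:30553170-30553199, plus strand: aagtaattattGAAGTTTCtaaataaggaa
Hspb8, chr5:116422844-116422873, minus strand: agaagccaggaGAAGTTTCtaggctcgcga
Bag3, chr7:128523603-128523632, plus strand: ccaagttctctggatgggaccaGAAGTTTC
Hspa1a, chr17:34972242-34972271, minus strand: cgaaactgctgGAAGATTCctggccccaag
Hspa1b, chr17:34959324-34959353, minus strand: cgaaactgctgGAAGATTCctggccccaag
Hsph1, chr5:149636351-149636380, minus strand: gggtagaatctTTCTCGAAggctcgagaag
Hsph1, chr5:149636287-149636316, minus strand: agtaaaatgctgcagaTTCTGGAAAGTTCt
Hspb1 had 2 pairs in this stretch, the first at position -117 from its start. Hsph1 had 3 pairs, 1 of them upstream of its first listed start at position -33. The others overlap in the uninterrupted triple TTCNNGAANNTTC, which with its complement GAANNTTCNNGAA was found in 0.603% of all promoters. Hspa1a and Hspa1b shared the same 30 bases, and their 300-base promoters were identical at 296 positions. Dnajb1 held no pair in either of its promoters, and Hspb6 held 1 only at the second of its starts. A match describes letters in a window, not a bound site, and nothing about a factor follows from a window without one.

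Hspb1, which encodes the small heat shock protein Hsp25 (HSPB1), showed the largest difference of the 10 genes. All levels given here are the log2-scale values deposited for each mouse after batch correction, and differences between groups are differences of these values. The fits took no account of that earlier correction, so calls near the threshold are less certain than their adjusted p. In NT mice Hspb1 ranged from 7.40 to 8.16 with a median of 7.84, and in untreated SOD1-G37R mice it ranged from 9.29 to 10.51 with a median of 9.85. The genotypes did not overlap, since the lowest SOD1-G37R mouse stood above the highest NT mouse. How many of all genes separate groups in this way was not counted, here or for the other separations given below. The means were 7.79 ± 0.25 and 9.85 ± 0.41 (SD, n = 10 each), and the difference, SOD1-G37R minus NT, was 2.07 (SE 0.14, adjusted p = 7.21e-11, limma with genotype and experiment in the model and Benjamini-Hochberg adjustment over the 15524 genes). On this scale the difference is a ratio of 4.20 with a 95% interval of 3.43 to 5.12, and by p Hspb1 ranked 49 of all genes.

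Cryab, which encodes alpha B-crystallin, a small heat shock protein abundant in oligodendrocytes and astrocytes, also separated the genotypes. It ranged from 10.03 to 10.44 (mean 10.24 ± 0.12, SD) in NT mice and from 10.59 to 11.19 (mean 10.97 ± 0.21, n = 10 each) in SOD1-G37R mice, again without overlap. The difference was 0.74 (SE 0.08, adjusted p = 1.06e-07), a ratio of 1.67. Hspb6, also called Hsp20, ranged from 5.29 to 6.34 (median 5.53) in NT mice and from 6.07 to 7.20 (median 6.86) in SOD1-G37R mice. Of the SOD1-G37R mice 1 male of experiment 2, at 6.07, lay below 2 of the NT mice, at 6.22 and 6.34, and the other 9 lay above all of them. The difference of Hspb6 was 1.13 (SE 0.14, adjusted p = 2.07e-06), a ratio of 2.19.

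Hspb8, the small heat shock protein that partners with Bag3, rose by a smaller step and with more overlap. Its levels ran from 6.55 to 7.27 (median 6.79) in NT mice and from 6.84 to 7.57 (median 7.07) in SOD1-G37R mice, of which 3 stood above all NT mice. The difference was 0.29 (SE 0.09, adjusted p = 0.025), and it was not called without SOD1-G37R female 6 (0.26, adjusted p = 0.0506), without SOD1-G37R male 3 of experiment 2 (0.24, 0.0531), without NT male 4 of experiment 2 (0.25, 0.0529), or with each mouse centred on its median (0.22, 0.0962). Bag3 ranged from 5.78 to 6.26 (median 6.12) in NT mice and from 5.96 to 6.51 (median 6.25) in SOD1-G37R mice, and 5 SOD1-G37R mice stood above all NT mice. The difference of Bag3, 0.19 (95% interval 0.04 to 0.35), did not pass the threshold (adjusted p = 0.0659). It passed without SOD1-G37R female 6 (0.23, 0.0298), without SOD1-G37R male 1 of experiment 2 (0.22, 0.0401) and without NT male 3 of experiment 2 (0.22, 0.0405).

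**Figure D1:**
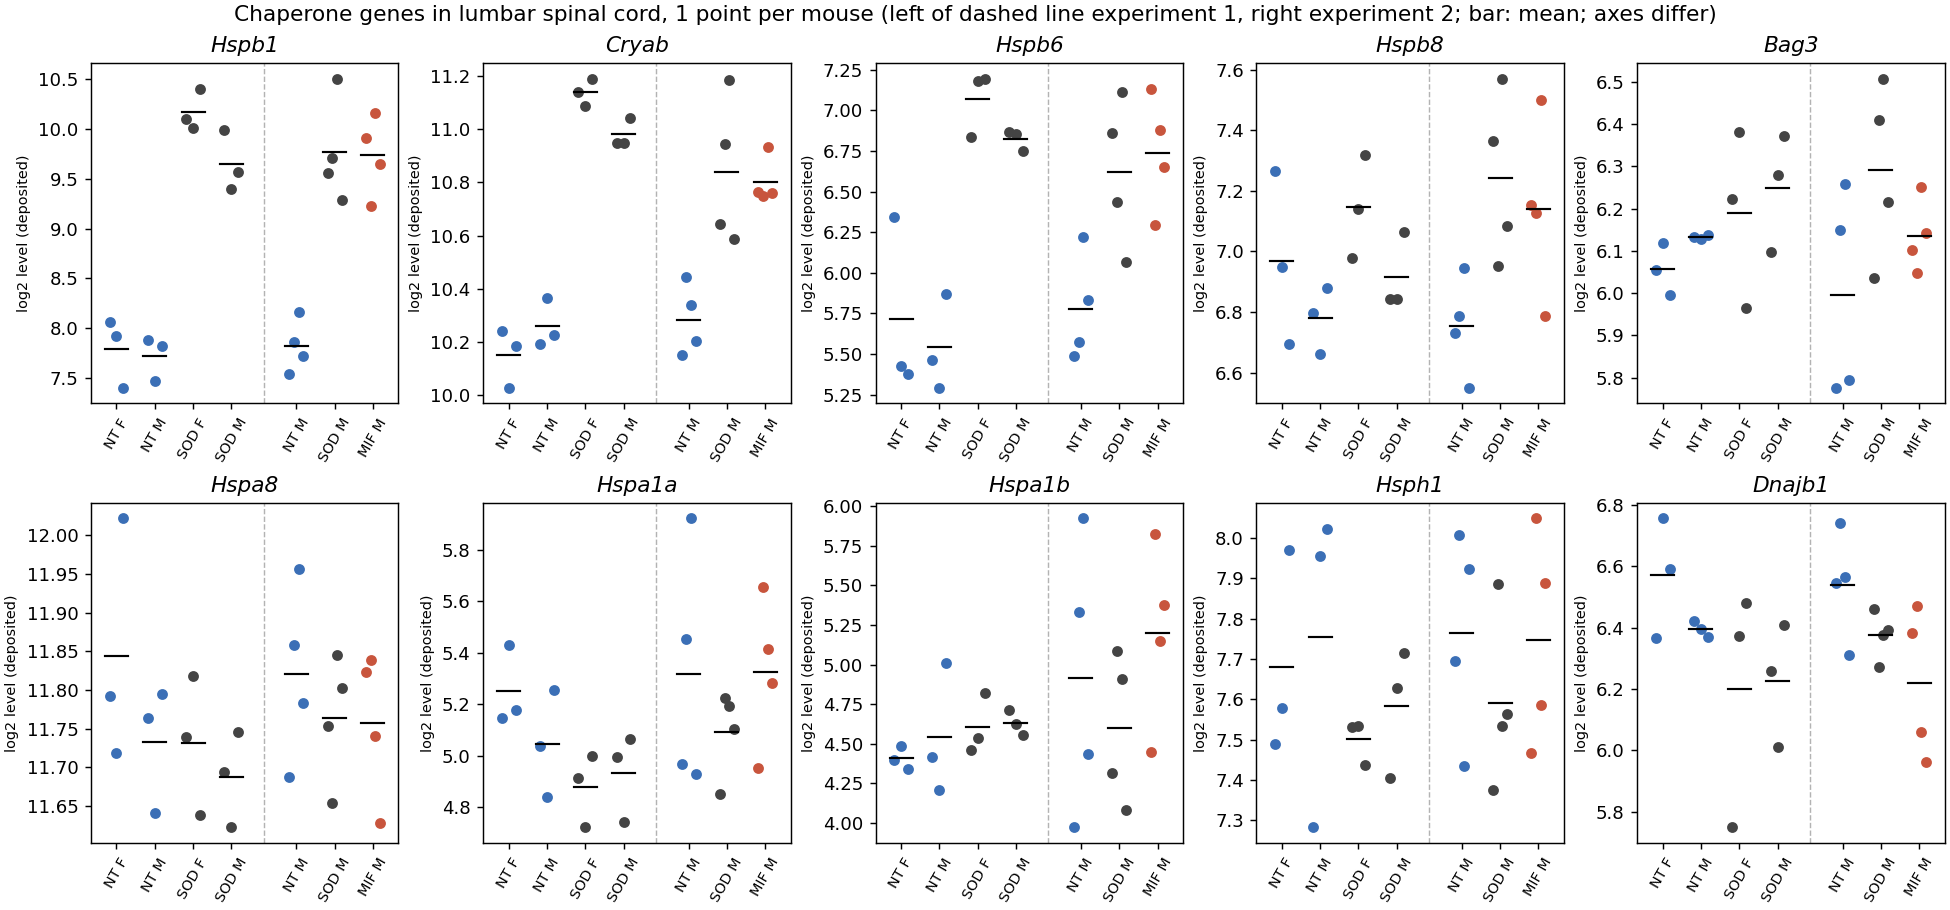
Deposited log2 level of each of the 10 genes (vertical axes, each panel with its own range) in every mouse (points), by group (horizontal axis; F, female; M, male; SOD, untreated SOD1-G37R; MIF, SOD1-G37R given AAV-PHP.eB-MIF), with bars at group means. Hspb1 lies between 7.40 and 8.16 in NT mice and between 9.23 and 10.51 in all SOD1-G37R mice, treated or not, while NT and untreated SOD1-G37R mice overlap for every Hsp70, Hsp110 and J-domain gene.

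None of the Hsp70 and Hsp110 genes was called between the genotypes on the values as deposited, whereas with each mouse centred on its median Hsph1 (-0.24, adjusted p = 0.0454) and Hspa1a were called lower. Hspa8, the constitutive Hsp70, ranged from 11.64 to 12.02 (median 11.79) in NT mice and from 11.62 to 11.85 (median 11.74) in SOD1-G37R mice, with a difference of -0.07 (95% interval -0.19 to 0.04, adjusted p = 0.396). Hsph1, the Hsp110 exchange factor, ranged from 7.28 to 8.02 in NT mice and from 7.38 to 7.89 in SOD1-G37R mice (medians 7.81 and 7.53), a difference of -0.17 (-0.37 to 0.02, adjusted p = 0.197). Both intervals end below 0.74, the difference of Cryab. For Hspa8 this holds for the row as counted, since 81.8% of the 50-base stretches in its last 500 bases occur in other genes.

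Hspa1a and Hspa1b, neighbouring copies of the stress-inducible Hsp70 gene, differed in their spread. Hspa1a ran from 4.84 to 5.92 (median 5.16) in NT mice and from 4.72 to 5.22 (median 5.0) in SOD1-G37R mice, and its difference of -0.23 (-0.45 to -0.02) did not pass after adjustment (adjusted p = 0.0988). It passed without NT male 1 of experiment 2 (-0.28, 0.0468), without NT male 4 of that experiment (-0.28, 0.0413) and with each mouse centred on its median (-0.30, 0.0372). Hspa1b ran from 3.97 to 5.92 (median 4.43) in NT mice and from 4.08 to 5.08 (median 4.59) in SOD1-G37R mice, with a difference of -0.04 (-0.42 to 0.34, adjusted p = 0.901). The 2 NT mice with the highest Hspa1b, males 2 and 3 of experiment 2 at 5.33 and 5.92, also had the highest Hspa1a, at 5.45 and 5.92.

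Dnajb1, the main J-domain partner of inducible Hsp70, was the only gene of the 10 called lower. It ranged from 6.31 to 6.76 (median 6.48) in NT mice and from 5.75 to 6.48 (median 6.37) in SOD1-G37R mice. The groups overlapped, and the difference of -0.23 (SE 0.08) passed narrowly (adjusted p = 0.049). Of the 20 fits that left out 1 mouse, 14 lost the call, with adjusted p up to 0.0946. The call remained without NT female 1, SOD1-G37R females 2 or 6, SOD1-G37R male 5 of experiment 1, or SOD1-G37R male 1 or NT male 4 of experiment 2, where adjusted p ranged from 0.0268 to 0.0499. It was also lost with sex as a further term (adjusted p = 0.0517) and in males alone (-0.17, 0.184).

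Across the 10 genes, 4 were called higher and 1 lower, and the median difference was 0.08. Over all 15524 genes 26.5% were called, 14.8% higher and 11.8% lower, with a median difference of 6e-04. The 4 called higher are the 4 small heat shock proteins, and no Hsp70, Hsp110, J-domain or BAG gene of the 10 was among them. With each mouse centred on its median, 3 were called higher (without Hspb8) and 3 lower (Dnajb1, Hspa1a and Hsph1). Over all 15524 genes that setting called 1645 higher and 2945 lower, so lower calls became more common throughout.

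The genotype difference was then taken within each experiment and each sex. In experiment 1 the difference was 2.15 for Hspb1, 1.32 for Hspb6 and 0.86 for Cryab (adjusted p = 1.52e-08, 5.61e-06 and 4.24e-07), and these were the 3 genes of the 10 called, where 23.3% of all genes were. All 6 SOD1-G37R mice of experiment 1 stood above all 6 NT mice for each of these genes. How many of all genes separate the genotypes within either experiment was not counted, so this is not read as particular to them. In experiment 2 the difference was 1.95 for Hspb1 and 0.56 for Cryab (adjusted p = 0.00042 and 0.0493), and these 2 genes were called, where 3.59% of all genes were. Hspb6 differed by 0.84 (adjusted p = 0.052) and Hspb8 by 0.49 (0.0944) there. Hspb8 was higher in all 4 SOD1-G37R mice of experiment 2 (7.36, 6.95, 7.57 and 7.08) than in all 4 NT mice (6.73, 6.79, 6.95 and 6.55), although the closest pair round to the same value, whereas in experiment 1 its difference was 0.16 (95% interval -0.08 to 0.39, adjusted p = 0.354).

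Whether the experiments differed was tested as an interaction in the 14 untreated males, and 0 of 15524 genes were called by limma (0% of genes; 554 at an unadjusted p under 0.05). For Hspb8 the genotype difference in experiment 2 minus that in experiment 1 was 0.35 (-0.07 to 0.78), and for Hspb6 it was -0.44 (-1.09 to 0.22). Sex by genotype was tested in the 12 mice of experiment 1, again with 0 genes called (0%; 673 at an unadjusted p under 0.05). The 3 SOD1-G37R females had Hspb1 at 10.10, 10.01 and 10.40 and the 3 SOD1-G37R males at 9.99, 9.40 and 9.57. Every female stood above every male, a separation whose share over all genes was not counted. The genotype difference of Hspb1 was 2.38 in females and 1.93 in males. The interaction, males minus females, was -0.45 (-1.02 to 0.12, adjusted p = 0.993) for Hspb1 and -0.27 (-0.59 to 0.06, adjusted p = 0.993) for Cryab. Within a sex, Hspb1, Hspb6 and Cryab were called in females and in males of experiment 1 alike, where 15.4% and 8.43% of all genes were called.

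**Figure D2:**
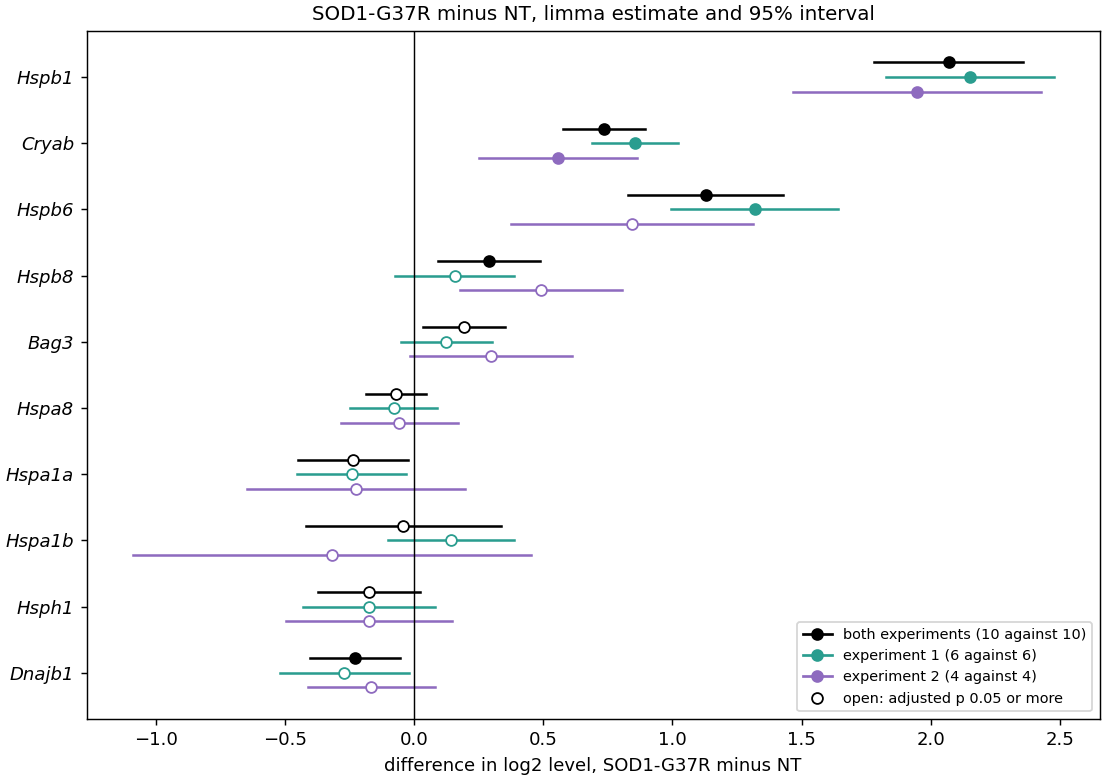
Difference in log2 level, SOD1-G37R minus NT (horizontal axis), for each of the 10 genes (vertical axis) in both experiments together, in experiment 1 and in experiment 2, with limma's 95% interval and filled points where the adjusted p is under 0.05. Hspb1 lies at 2.07, 2.15 and 1.95, whereas Hspa8, Hsph1, Hspa1a and Dnajb1 lie below 0 in all 3.

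The 4 SOD1-G37R males given AAV-PHP.eB-MIF were compared with the 4 untreated SOD1-G37R males and the 4 NT males of experiment 2. Hspb1 was 9.91, 9.23, 10.16 and 9.65 in the treated mice, against 9.56, 9.71, 10.51 and 9.29 in untreated SOD1-G37R males and 7.54, 7.86, 8.16 and 7.72 in NT males. The treated and untreated SOD1-G37R mice overlapped, and both groups lay entirely above NT. The difference, treated minus untreated, was -0.03 for Hspb1 (95% interval -0.53 to 0.46), -0.04 for Cryab (-0.31 to 0.24), 0.12 for Hspb6 (-0.35 to 0.59) and -0.10 for Hspb8 (-0.44 to 0.23), each with an adjusted p of 1. None of the 10 genes was called in this comparison, and 1 gene of 15524 was (0.00644%; 511 at an unadjusted p under 0.05). That gene was Cd74, a surface receptor for MIF and the invariant chain of MHC class II, which was higher by 1.29 (adjusted p = 0.0155). For Hspb1 the interval reaches from a fall of 0.53 to a rise of 0.46, so the result does not show that the groups were alike.

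Hspa1b had the widest spread of the 10 genes in treated mice, at 4.45, 5.83, 5.15 and 5.38, against 4.32, 5.08, 4.91 and 4.08 in untreated SOD1-G37R males. Of the treated mice 3 stood above all untreated SOD1-G37R males, and the difference was 0.60 (-0.17 to 1.37, adjusted p = 1). NT males of experiment 2, at 3.97, 5.33, 5.92 and 4.44, covered the whole of the untreated and treated range. Hspa1a followed, at 4.95, 5.66, 5.41 and 5.28 in treated mice against 4.85, 5.22, 5.19 and 5.11 in untreated SOD1-G37R males, a difference of 0.23 (-0.18 to 0.65). Dnajb1 was 6.38, 6.47, 6.06 and 5.96 in treated mice, of which males 3 and 4 lay below every untreated SOD1-G37R male of experiment 2 (6.27 to 6.46). Its difference was -0.16 (-0.43 to 0.11).

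Against NT males, which serve as controls for both SOD1-G37R groups, treated mice had 3 of the 10 genes called higher and none lower, where 3.11% of all genes were called and 2.89% were called higher. Hspb1 was higher by 1.91 (adjusted p = 0.000162), Hspb6 by 0.96 (0.0234) and Cryab by 0.52 (0.038), and for each gene all 4 treated mice stood above all 4 NT males. The share of all genes with such a separation was not counted. Hspb8 differed by 0.39 (0.05 to 0.72, adjusted p = 0.25) and Dnajb1 by -0.32 (-0.59 to -0.05, adjusted p = 0.236). The call on Hspb6 was lost without treated male 1 or 3 or NT male 1, 2 or 4, with differences from 0.83 to 0.98 and adjusted p from 0.0619 to 0.0922. The call on Cryab was lost without any 1 of the 4 treated males or without NT male 1, 3 or 4, with differences from 0.47 to 0.54 and adjusted p from 0.0615 to 0.139, and with each mouse centred on its median (0.46, 0.076).

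**Figure D3:**
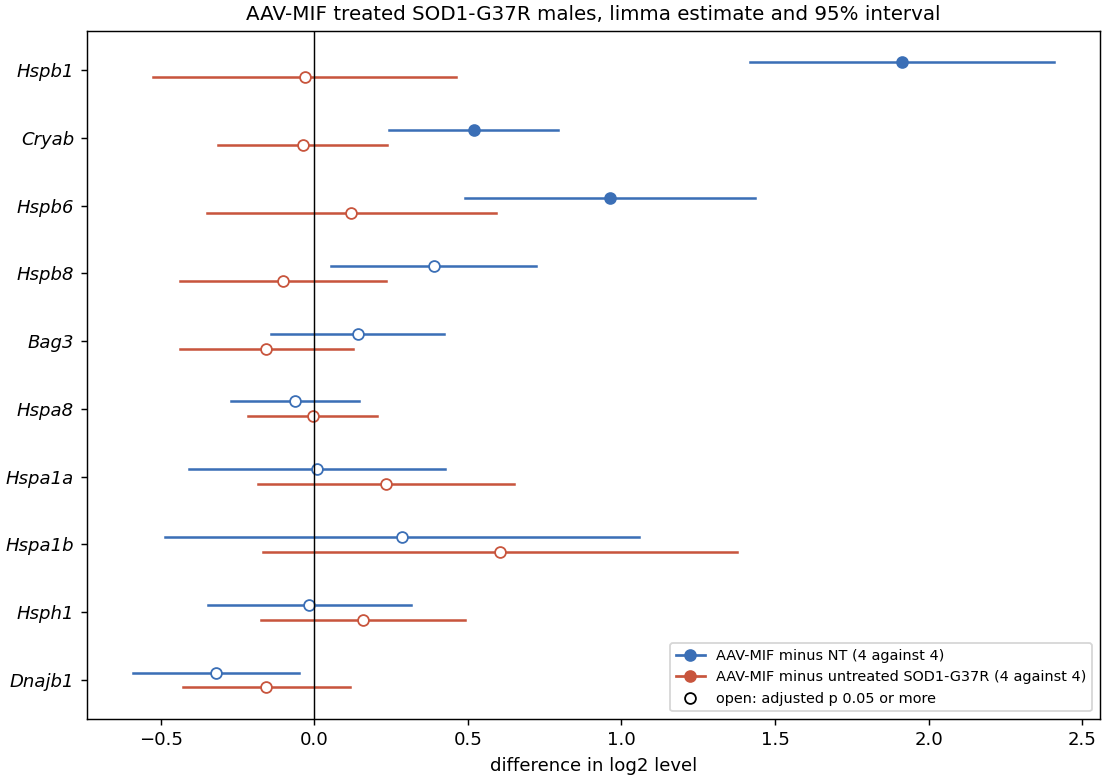
Difference in log2 level (horizontal axis) of each of the 10 genes (vertical axis) in AAV-PHP.eB-MIF-treated SOD1-G37R males, against NT males and against untreated SOD1-G37R males of experiment 2, with limma's 95% interval and filled points where the adjusted p is under 0.05. Hspb1 lies at 1.91 against NT and at -0.03 against untreated SOD1-G37R mice, and no point of the second comparison is filled.

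The genes were also compared with each other and with cell type markers from mouse to mouse, after the mean of each of the 7 groups was taken off. Differences in mean by genotype, treatment, sex or experiment therefore do not enter. Differences in spread do, so groups that vary more weigh more in these correlations. The points share library, depth and cell makeup, and the correlations are descriptions over 24 mice. Deviations of Hspb1 went with those of Hspb6 (r = 0.72), Hspb8 (0.64) and Cryab (0.61), and Hspb6 went with Hspb8 (0.65). Hspa1a and Hspa1b had the highest value of any pair, 0.87, and each was the gene most like the other among all genes above the median level. Bag3 went with Cryab (0.58), Hspa1b (0.53) and Hspa1a (0.51). Hsph1 went the opposite way to Hspb1 (-0.51), Hspb8 (-0.48) and Hspb6 (-0.46).

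By the same measure the genes most like Hspb1 were Cotl1, an actin-binding protein (0.88), Eif4ebp1, a repressor of translation (0.86), and Arpc1b, a subunit of the Arp2/3 complex (0.86). Cryab was most like Sh3pxd2b (0.80), Trem2, a lipid receptor of microglia (0.80), and Scamp2 (0.79). Hspb6 was most like Ech1, Reep5 and Myl6 (0.86, 0.85 and 0.85), Hspb8 most like Zfand2b, Arap1 and Crhr1 (0.90, 0.84 and 0.79), and Bag3 most like Sipa1, Jdp2 and Gm9794 (0.78, 0.75 and 0.72). Hspa1a came next to Lrrc49 and Zfp688 (0.81 and 0.66) after Hspa1b, and Hspa1b came next to Hnrnpm and Pak1ip1 (0.69 and 0.66) after Hspa1a. Hspa8 was most like Cox5a, Cox5b and Elob (0.81, 0.81 and 0.80), the first pair of which are subunits of cytochrome c oxidase. Hsph1 was most like Dzank1, the neuronal sodium channel Scn1a and Mdh1 (0.87, 0.86 and 0.86), and Dnajb1 most like Cdk2ap1, Il17rc and Map2k3 (0.73, 0.71 and 0.69). The median level of a mouse over all genes correlated with Hsph1 at 0.66 and with Hspa8 at -0.58, and with the other 8 genes between -0.39 and 0.25.

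**Figure D4:**
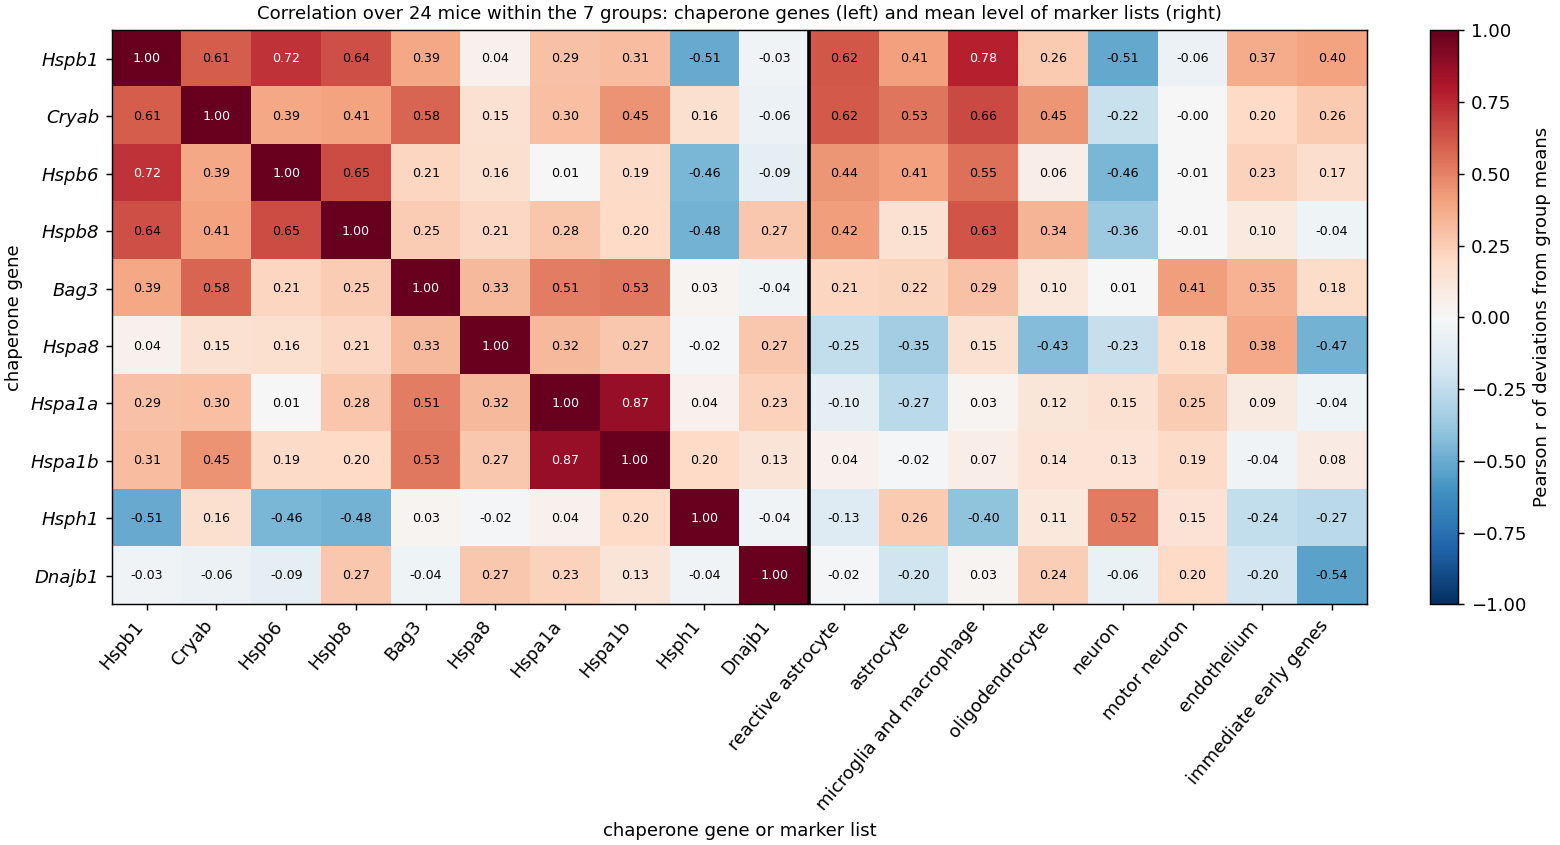
Pearson r over 24 mice, after group means were taken off, between the 10 genes (rows) and the same genes (left columns) or the mean level of marker lists (right columns); red is positive and blue negative. The block of Hspb1, Cryab, Hspb6 and Hspb8 is red with values from 0.39 to 0.72, and Hspb1 reaches 0.78 with the microglia and macrophage list.

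Markers of cell types moved with the genotype too. Of 10 microglia and macrophage markers 8 were higher in SOD1-G37R mice, and the mean level of the list was 6.32 to 6.68 in NT mice and 7.63 to 8.43 in untreated SOD1-G37R mice. All 7 reactive astrocyte markers were higher (5.21 to 5.66 against 6.54 to 7.47), and 6 of 10 general astrocyte markers were higher and 1 lower (8.41 to 8.75 against 8.78 to 9.16). Of 8 neuron markers 7 were lower (9.20 to 9.56 against 8.39 to 9.11), as were 4 of 6 motor neuron markers (3.72 to 4.19 against 3.16 to 3.83). Within groups the microglia and macrophage list went with Hspb1 (r = 0.78), Cryab (0.66), Hspb8 (0.63) and Hspb6 (0.55), the reactive astrocyte list with Hspb1 and Cryab (0.62 each), and the neuron list with Hsph1 (0.52) and, negatively, with Hspb1 (-0.51). The list of Schwann cell markers, of which 3 of 5 were measured, went with Hsph1 (0.61) and opposite to Hspa8 (-0.63). In bulk tissue, more cells of a type and more RNA per cell cannot be told apart, and the part of these lists in the differences of the 10 genes was not tested. Of 10 oligodendrocyte markers 2 were higher and 1 lower, 0 of 6 endothelial, 0 of 3 Schwann cell, 0 of 2 skeletal muscle and 0 of 4 red blood cell markers were called, and of the 6 markers of mural and smooth muscle cells, the latter a known site of Hspb6, 1 was higher (Tagln at 0.93) and 1 lower (Myh11 at -0.29). Of 8 immediate early genes 5 were higher (4.58 to 4.84 against 4.96 to 5.48), a list whose deviations went opposite to Dnajb1 within groups (-0.54). Choline acetyltransferase (Chat), a motor neuron gene, and Hoxc10, a gene of lumbar segments, were measured above 0 in every mouse. Only 2.22% of all values lay below 0, so this is a weak check of the tissue. Hoxc10 was 6.95 ± 0.628 in NT and 6.49 ± 0.305 in untreated SOD1-G37R mice (SD, n = 10 each). It was 5.88 ± 0.867 in treated males and 6.52 ± 0.38 in untreated SOD1-G37R males of experiment 2 (SD, n = 4 each). Whether the segments taken differed between groups was not tested.

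Other chaperone families, listed by name, were called in both directions, and their counts stand beside 14.8% of all genes called higher and 11.8% called lower. Of 6 further genes listed by symbol as small heat shock proteins 2 were measured and neither was called, Hspb2 at -0.03 and Hspb11 at 0.07. Hspb2 had a mean level of 1.42, where the median over all genes was 4.18, so its difference says little. Whether Hspb11 belongs to the family beyond its symbol was not checked, so nothing about the rest of the family is read from these genes. Of 15 genes of HSP90 and its co-chaperones 0 were higher and 5 lower, including Stip1, the adaptor between Hsp70 and HSP90, at -0.46, the kinase co-chaperone Cdc37 at -0.36, the immunophilin Fkbp4 at -0.36 and Stub1 at -0.36. Of 7 other Hsp70 and Hsp110 genes 2 were higher, Hspa2 at 0.56 and Hspa13 at 0.24, and 3 lower, Hspa12a at -0.61, Hspa4l at -0.37 and Hspa12b at -0.30. Of 19 other J-domain genes 1 was higher, Dnajc1 at 0.40, and 5 were lower, among them Dnajc21 at -0.41 and Dnajc5, the cysteine string protein of synaptic vesicles, at -0.37. Of 5 other BAG genes Bag1 alone was called, at -0.20.

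Among heat shock factors and their regulators, Hsf4 was lower (-0.52) and Hsbp1, which binds Hsf1, was higher (0.24), whereas Hsf1 at -0.16 and Hsf2 at -0.05 were not called. Of 8 partners of chaperone-assisted selective autophagy 1 was higher, Synpo at 0.43, and 3 were lower, namely Ywhag (-0.51), Stub1 and Vps18 (-0.32), and the autophagy receptor Sqstm1 at 0.12 was not called. Of 14 subunits of the chaperonin TRiC and prefoldin 1 was higher, Cct6a at 0.17, and 3 were lower, the lowest being Pfdn2 at -0.37. Chaperones of the endoplasmic reticulum had 4 of 13 genes called higher and none lower, namely the disulfide isomerase Pdia6 (0.35), Manf (0.32), Dnajc3 (0.32) and the HSP90 paralogue Hsp90b1 (0.21). Of 7 mitochondrial chaperones Hspe1 was called, higher at 0.29. These lists are short, and beside shares of 14.8% higher and 11.8% lower over all genes nothing particular to a list is read from its count. The list medians ran from -0.16 to 0.21, against 6e-04 over all genes. Between treated and untreated SOD1-G37R males no gene of these lists was called.

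**Figure D5:**
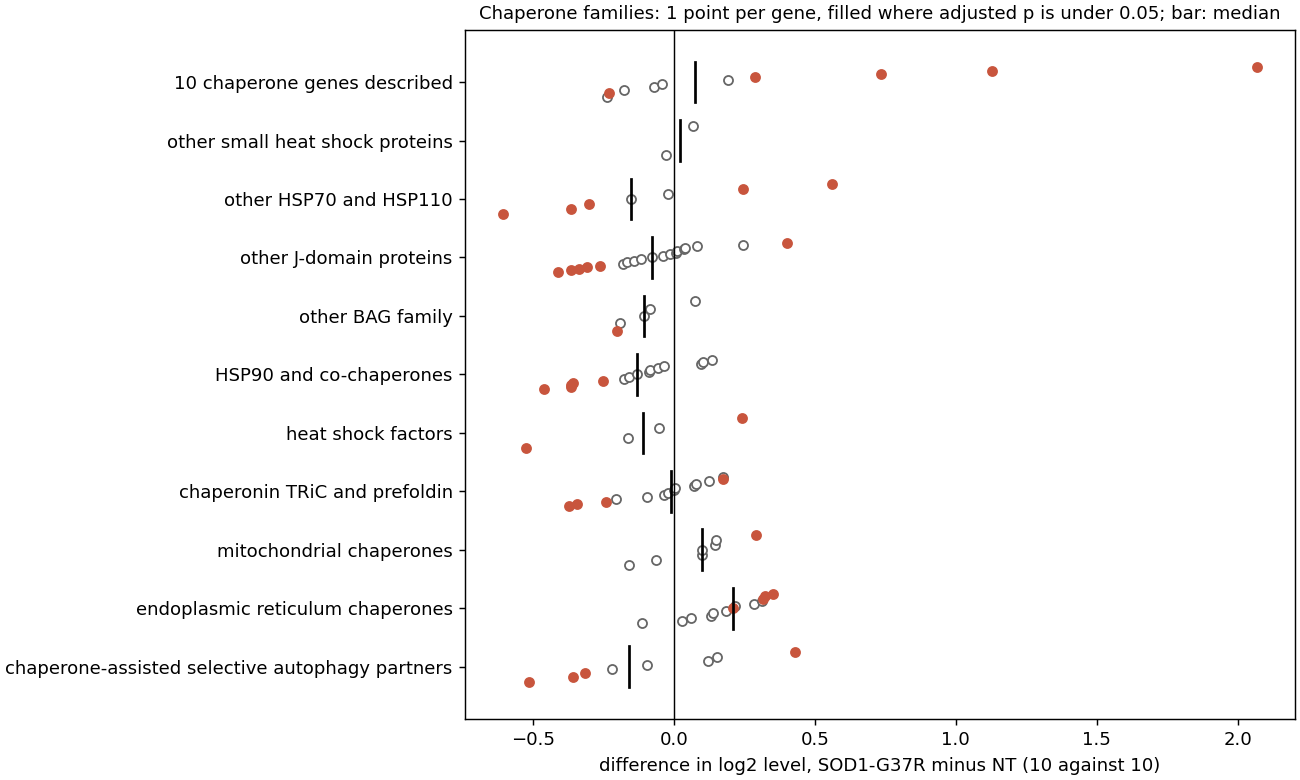
Difference in log2 level, SOD1-G37R minus NT (horizontal axis), of each measured gene of the 10 described and of 10 further chaperone lists (vertical axis), filled where the adjusted p is under 0.05, with a bar at the list's median. Hspb1 at 2.07 and Hspb6 at 1.13 lie beyond every gene of the other lists, which run from -0.61 to 0.56.

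Sequence shared between genes bears on some of these rows. In the transcript annotation of GRCm38, 16.0% of the 50-base stretches in the last 500 bases of Hspb1 also occur in the pseudogene Hsp25-ps1, which was itself higher by 1.54 in SOD1-G37R mice (adjusted p = 7.35e-08), from 5.08 ± 0.23 to 6.62 ± 0.51 (SD, n = 10 each). For Hspa8 the share was 81.8%, over 11 other genes, so its row is uncertain. Hspa1a and Hspa1b share 60.3% and 62.3% of such stretches over their whole transcripts but none in the last 500 bases, the end that MARS-seq reads. The other 6 genes shared none there. Hspb6 (chr7:30552178-30555443, plus strand) overlaps Proser3 and Lin37 and Cryab (chr9:50751325-50756636, plus strand) overlaps Hspb2, all on the opposite strand, as is Gm20481 at Hspa1a, and the strand setting of the counting is not given in the sources used here. On their own strand, Hspb6 overlaps the miRNA gene Gm38670, Bag3 overlaps 2610306O10Rik and Hspa8 overlaps 3 small nucleolar RNA genes. Hspb1 lies at chr5:135887919-135889563 on the plus strand, Hspb8 at chr5:116408491-116422864 on the minus strand and Dnajb1 at chr8:83608193-83612653 on the plus strand, with no overlapping gene.

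Differences in scale between samples were small but went with the genotype. The median level over all genes was 4.08 to 4.17 in NT mice and 4.15 to 4.23 in untreated SOD1-G37R mice. In experiment 1 these medians did not overlap, at 4.09 to 4.17 in NT and 4.19 to 4.23 in SOD1-G37R mice. Centring each mouse on its median moved the split of all calls from 2290 higher and 1830 lower to 1645 higher and 2945 lower. Depth of each mouse is unknown from these values, the paper giving only a mean read number over the samples, and the transform behind them is not stated. The row for Mif was 9.69 ± 0.11 in untreated and 9.77 ± 0.19 in treated SOD1-G37R males (SD, n = 4 each), a difference of 0.09, and the row for mouse Sod1 was 10.30 ± 0.11 in NT and 10.15 ± 0.13 in untreated SOD1-G37R mice (SD, n = 10 each). Neither checks the labels, since the transcripts of the vector and of the human transgene may end in other sequence than these mouse genes do.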

How the data were processed

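RNA from lumbar spinal cord was sequenced by bulk MARS-seq. The authors used Trim Galore 0.4.5 with cutadapt 1.15 for trimming, STAR 2.5.2a for alignment to GRCm38, RSEM 1.2.28 for counting, and SVA/ComBat for batch correction. Values on a log2 scale, 1 for each mouse and gene, were used as deposited by the authors. The transform is not stated, values run from -0.79 to 14.8, and the depth of each mouse is unknown, since the paper gives only a mean over samples. Fold changes and p-values of the authors' own tests in the same table were not used. All 15524 genes entered limma 3.58.1 (R 4.3.3), without trend or filter, with Benjamini-Hochberg adjustment and calls under 0.05. Genotype was fitted in 20 untreated mice with experiment as a term, treatment in the 12 males of experiment 2, and both interactions as described. The fits were tested on simulated data. The 10 genes and all lists were chosen with earlier results of these data known. Named genes were the 10, up to 4 of smallest adjusted p per chaperone list, and the 3 of highest within-group r per gene. Hspa4l, Dnajc1, Sqstm1, Mif, Sod1, Cd74, Chat, Hoxc10, Hsp25-ps1, Tagln and Myh11 were named outside that rule. Promoters came from RefSeq, GRCm38.p6. Alternatives changed covariates, mice, scaling, filter and variance prior. Tables and figures were made in Python 3.11.15 (pandas 2.3.3, numpy 2.4.6, matplotlib 3.10.9).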

Additional observations from a re-analysis of the deposited data

Results flagged for a closer look

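In the 4 treated SOD1-G37R males Cryab was 10.76, 10.75, 10.93 and 10.76, so that male 3, at 10.93, stood apart from the other 3. In NT mice of experiment 1, male 5 had the highest Hspa1b, at 5.01, where the next highest of the 6 mice was 4.49. These are 2 of 70 combinations of gene and group tested for a single distant mouse, and chance alone flags about 1 group in 20.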

How the results depend on the processing

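For SOD1-G37R against NT, experiment 2 alone called 493 genes higher and 65 lower, males alone 1506 and 938, and centring each mouse on its median raised the lower calls to 2945. Of the 10 genes described, 2 were called higher in experiment 2 alone. The single lower call among them became 0 with sex as a further term, in experiment 1 alone, in experiment 2 alone, in males alone, with all 24 mice in 1 fit and with limma's trend, became 3 with centring, and ranged from 0 to 2 when 1 mouse was left out. For treated against untreated SOD1-G37R males, genes called higher were 4 with all 24 mice in 1 fit, 2 with a mean level of 4 or more required, 3 with the trend, and 0 to 2 when 1 mouse was left out. For treated males against NT, all 24 mice in 1 fit gave 928 higher and 371 lower, centring gave 74 lower, and leaving out 1 mouse gave 266 to 509 higher, 10 to 79 lower, and 1 to 3 of the 10 genes higher. The causes were not tested, beyond the fewer mice in the fits on subsets.

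Replicate numbers in the labels do not pair the mice: deviations of same-numbered mice correlated between -0.256 and 0.369, above 0.1 in 6 of 18 pairs. With the number as a replicate block, lower calls among the 10 genes for the genotype became 2, with Hspa1a added (adjusted p = 0.0486), Bag3 passed (0.0243), treated against untreated males gave 0 genes higher, and treated males against NT gave 53 lower. Of 250 values of the 10 genes under alternatives other than leaving out a mouse, 229 kept their direction and their side of the threshold, 11 lost a call, 4 gained one and 6 changed sign without a call in either fit. Those 6 were small: Hspa1b for the genotype in experiment 1 alone (0.14), Hspb6 (-0.023) and Hspa8 (5e-04) for treated against untreated males with all 24 mice in 1 fit, and, with centring, Hspa1a for treated males against NT (-0.050) and Hspa8 (0.013) and Hsph1 (0.021) for experiment by genotype.

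Leaving out 1 mouse changed the sign of 68 of 700 values, in 21 differences, and 0 of these were called in either fit. For the genotype Hspa1b ran from -0.14 to 0.097. For treated against untreated males Hspb1 ran from -0.19 to 0.21, Hspb6 from -0.065 to 0.28, Hspb8 from -0.22 to 0.016, Cryab from -0.12 to 0.077 and Hspa8 from -0.043 to 0.037. For treated males against NT Hspa1a ran from -0.12 to 0.21, Hspa1b from -0.030 to 0.62 and Hsph1 from -0.13 to 0.077. For sex by genotype Hspb6 ran from -0.39 to 0.092, Hspb8 from -0.19 to 0.097, Bag3 from -0.13 to 0.079, Hspa1b from -0.28 to 0.12, Hspa8 from -0.023 to 0.13, Hsph1 from -0.23 to 0.14 and Dnajb1 from -0.024 to 0.34. For experiment by genotype Hspb1 ran from -0.23 to 0.19, Hspa1a from -0.24 to 0.087, Hspa8 from -0.056 to 0.034, Hsph1 from -0.14 to 0.23 and Dnajb1 from -0.10 to 0.095. Hspb1 was called for the genotype under all 9 alternatives (1.94 to 2.15) and with each of the 20 mice left out (1.99 to 2.13), and so was Cryab (0.56 to 0.86 and 0.70 to 0.78). Hspb6 was called in 8 of the 9, not in experiment 2 alone (0.84, adjusted p = 0.052), and Hsph1 was called with centring only (-0.24, 0.0454). Depth per mouse is not known, so no detection limit can be given for the lower-level genes Hspa1a and Hspa1b.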
